A study of Mus musculus with 45 samples.

Results

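A set of 10 genes of the amino acid branch of the integrated stress response were followed through 45 arrays of NIH-3T3 cells, an established line of mouse embryonic fibroblasts. It holds Atf4 and 9 genes known as targets or partners of its protein, namely Atf5, Atf3, Trib3, Chac1, Cth, Pck2, Asns, Gpt2 and Vldlr. They were chosen by symbol: a probe set belonged to a gene when the platform annotation gave it exactly 1 symbol and that symbol was the gene's. All 10 genes of the set were on the array, out of 13232 genes with such a probe set, and they had 22 of the 31390 probe sets that were not controls. Each gene is given by the probe set with the highest mean over all 45 arrays, and the other probe sets are given where they differ.

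The study measured how fast transcripts turn over. Total RNA was taken from untreated cells (3 arrays) and after 1 h and 2 h of actinomycin D at 5 µg/ml (3 arrays each), a drug that blocks transcription. In the other groups the RNA made during a short time was labelled with 4-thiouridine (4sU), a uridine analogue. Newly transcribed RNA, which carries the label, was measured after 15 min (3 arrays) and 30 min (9 arrays) at 500 µM and after 60 min at 200 µM (3 arrays). Total RNA of labelled cells was measured at 30 min (9 arrays) and 60 min (3 arrays), and unlabelled pre-existing RNA at 60 min (3 arrays). Another experiment of 60 min at 200 µM, with 3 arrays of total and 3 of newly transcribed RNA, is marked 2F, a term left without explanation, as is the word mock in the names of the samples of 15 min and 60 min. Cells of all groups were at passages 5 to 15, were seeded at 40% density, stood at about 80% at the start, and were grown in 5% NCS. They carried no transgene or mutation that the labels name. Actinomycin D and 4sU were both given in fresh medium, so in each comparison with untreated cells the change of medium and the compound cannot be told apart. Nothing states that the replicates were separate cultures, so a p here speaks of the scatter among arrays, and that scatter may be technical.

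Atf4 is a basic leucine zipper transcription factor. When amino acids run short, the kinase Gcn2 phosphorylates the translation factor eIF2, general translation slows and the Atf4 protein is made in larger amounts from its existing transcript. The protein then binds, together with C/EBP family members, to composite elements in genes of amino acid synthesis, uptake and redox balance, and it induces its own brakes, among them Trib3. Atf5 and Atf3 are related leucine zipper factors, of which Atf3 is also an early response gene to serum and stress. Chac1 degrades glutathione. Cth makes cysteine, Asns makes asparagine, Gpt2 makes alanine in mitochondria, Pck2 is the mitochondrial phosphoenolpyruvate carboxykinase, and Vldlr is a lipoprotein receptor.

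Promoter sequence was read for the members. They were chosen as known targets or partners of the Atf4 protein, so a match to its motif among them is no independent finding. RefSeq windows on GRCm38.p6, from 250 bases before to 50 after a start, covered 9 of the 10 genes with 11 start windows, and Cth had none. The search, on both strands, was for 2 motifs. These were TGATGNAA, the core of the C/EBP-ATF composite element to which Atf4 binds, and TGACGTCA, the cAMP response element, and no promoter had the 2 motifs overlapping. TGATGNAA was in the windows of 6 genes, Atf3, Trib3, Chac1, Pck2, Asns and Vldlr, and in 3.91% of all 32544 windows of that length (1273 windows). The member count is of genes and the share is of windows, of which a gene can have several. TGACGTCA was in the windows of 0 of the 9 genes and in 1.80% of all windows. Vldlr had the match at 1 of its 2 starts. Neither motif was in the windows of Atf4, Atf5 or Gpt2. The matches are printed to show where the shared letters lie, in 30 bases each, 5′ to 3′ on the strand of the gene, with the 8 matching bases in capitals. The letters TTGCATCA and TTACATCA are the motif on the opposite strand. A match is a run of letters in a window and no measured binding site.
Atf3: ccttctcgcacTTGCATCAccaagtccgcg
Trib3: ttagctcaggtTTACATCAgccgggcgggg
Chac1: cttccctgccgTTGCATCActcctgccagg
Pck2: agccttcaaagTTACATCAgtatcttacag
Asns: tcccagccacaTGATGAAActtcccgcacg
Vldlr: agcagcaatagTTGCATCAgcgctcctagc
The stretches lie at chr1:191183425-191183454 on the minus strand (Atf3), chr2:152344028-152344057 minus (Trib3), chr2:119351038-119351067 plus (Chac1), chr14:55540152-55540181 plus (Pck2), chr6:7693214-7693243 minus (Asns) and chr19:27216809-27216838 plus (Vldlr). The match began 193 bases before the start in Chac1, 110 in Atf3, 103 in Pck2, 200 in Vldlr and 23 in Asns. In Trib3 it began 14 bases after the start, in the transcribed part. Chac1, the gene with the widest range of levels in these data, is also given with the 250 bases before its start, chr2:119350992-119351241 on the plus strand, with the same match in capitals.
Chac1 upstream: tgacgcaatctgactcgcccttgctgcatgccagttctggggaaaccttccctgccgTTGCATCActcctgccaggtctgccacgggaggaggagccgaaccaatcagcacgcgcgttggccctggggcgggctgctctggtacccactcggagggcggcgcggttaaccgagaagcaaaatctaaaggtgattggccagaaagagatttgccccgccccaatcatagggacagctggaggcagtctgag

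Levels are log2 of the deposited intensity, on which 1 unit is a factor of 2, and a level belongs to its probe set and is not compared with that of another. In total RNA 11 of 11 fibroblast markers had a mean level of 7 or more, led by Vim, and all markers of epithelium (3), leukocytes (2) and endothelium and muscle (4) on the array were below 5. The following features of the arrays touch the results. The 9 arrays of each 30 min group were read as 3 sets. These were replicates 1, 4 and 7, then 2, 5 and 8, then 3, 6 and 9. In total RNA the correlations across probe sets were 0.991 to 0.996 within sets and 0.912 to 0.971 between sets. In newly transcribed RNA they were 0.974 to 0.993 and 0.906 to 0.987, which overlap, so the sets are less distinct there. The 9 arrays of a group are thus not 9 independent samples. The arrays of total and newly transcribed RNA of the first 60 min experiment were the least alike within their groups, with median correlations to their fellows of 0.874 to 0.933 and 0.831 to 0.907, against 0.911 or more in every other group. On replicate 2 of that total RNA the 3′ probe set of beta-actin stood 3.08 above the 5′ one, and on replicate 1 of that newly transcribed RNA the 3′ probe set of Gapdh stood 3.07 above, on the log2 scale. Results are therefore also given without these arrays, and for 30 min with each set averaged.

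The members covered different ranges over the 11 groups. The mean level of Chac1 ran over 8.43 log2 units, from 2.18 ± 0.16 (SD, n = 3) after 2 h of actinomycin D to 10.60 ± 0.65 (n = 9) in newly transcribed RNA at 30 min. Atf3 ran over 5.72 units, from 3.47 ± 0.45 after 1 h of the drug to 9.19 ± 0.63 in newly transcribed RNA at 30 min. Trib3 ran over 4.86, from 5.29 ± 0.55 in total RNA of the first 60 min experiment to 10.14 ± 0.45 in newly transcribed RNA at 30 min. Atf4 stayed within 2.33 units and Asns within 1.65, both bright in every group. Cth (3.93), Gpt2 (4.29), Pck2 (3.24), Atf5 (2.67) and Vldlr (2.41) had their lowest mean in newly transcribed RNA of the first 60 min experiment.

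For Atf4, the 4 groups of newly transcribed RNA held the 4 highest means, 12.80 to 13.14, and their arrays lay above all other arrays. The arrays of 15 min overlapped those of 2F but lay below those of 30 min and of the first 60 min experiment. Total RNA at 30 min (11.85 ± 0.29) and of untreated cells (11.85 ± 0.02) followed and overlapped. The lowest means were those of total RNA of the first 60 min experiment (10.90 ± 0.84) and of cells after 2 h of actinomycin D (10.81 ± 0.07), which overlapped too. For Asns, in contrast, all groups of total RNA of untreated and drug-treated cells lay at 12.12 to 12.25, and the 4 groups of newly transcribed RNA held the lowest means, 10.59 to 11.50.

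**Figure D1:**
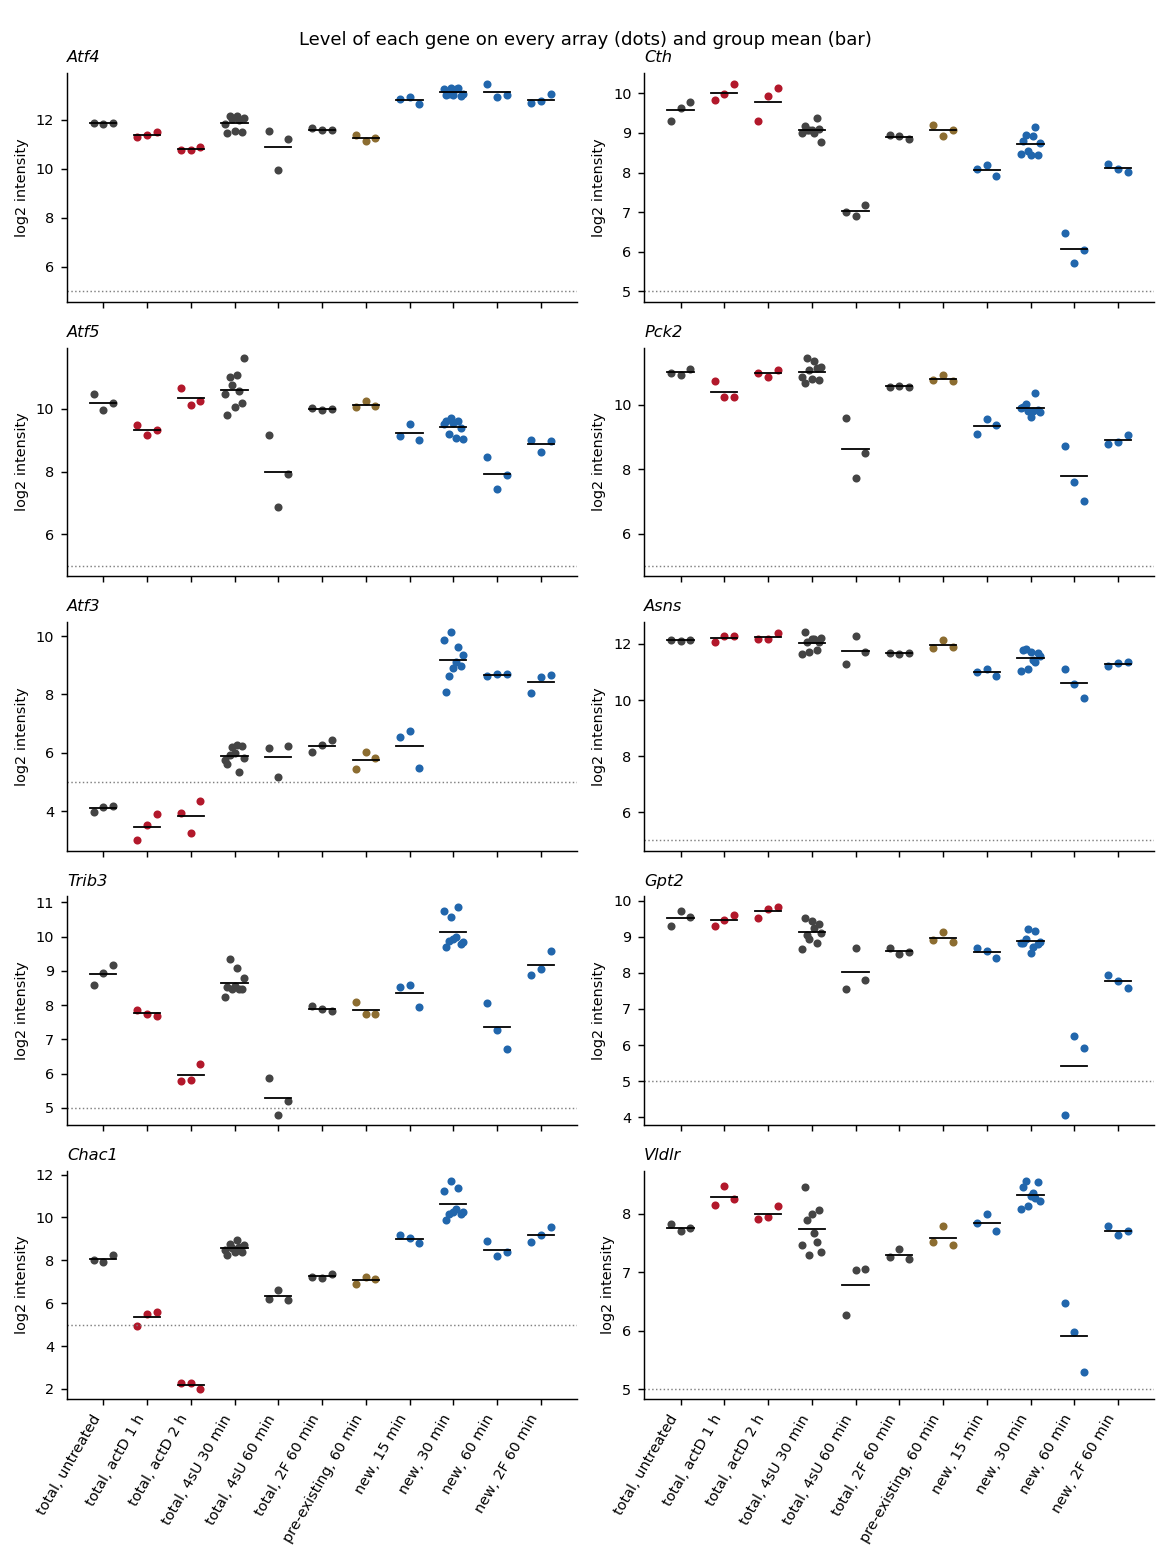
Log2 intensity of the 10 genes on each of the 45 arrays (dots) with the group mean (bar), 1 panel per gene with its own axis, total RNA in grey, actinomycin D in red, pre-existing RNA in brown and newly transcribed RNA in blue. The dotted line marks a log2 level of 5. Chac1 falls below it after 2 h of actinomycin D, and Atf3 lies below it in untreated and drug-treated cells. Single arrays of Chac1 at 1 h of the drug, and of Trib3 and Gpt2 in the first 60 min experiment, are below it too. The total RNA arrays of the first 60 min experiment scatter more than those of 2F.

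Actinomycin D asked which of these transcripts are lost when no more are made. Chac1 was lost fastest, then Trib3, then Atf4, while the transcripts of the enzymes Cth, Pck2, Asns and Gpt2 and of the receptor Vldlr were not called lower at either time. A gene was called when limma's Benjamini-Hochberg adjusted p over all probe sets tested was below 0.05 and the fold change was 2 or more. At 1 h 2 of the 9 members tested were called lower and 0 higher, where 3.58% of all 15060 probe sets tested were lower and 2.57% higher (1 member was higher at an unadjusted p below 0.05). At 2 h 3 were called lower and 0 higher, against 9.42% lower and 0.538% higher overall (0 members were higher at an unadjusted p below 0.05). Both times share the untreated arrays as control. Quantile normalization turned the overall split at 2 h from 1419 lower and 81 higher to 1198 and 305. Atf3 was not tested here, since its mean over these arrays was below the filter of log2 5: it lay at 4.09 ± 0.12 in untreated cells, 3.47 ± 0.45 at 1 h and 3.85 ± 0.55 at 2 h.

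Chac1 read 8.00, 7.90 and 8.24 on the untreated arrays, 4.95, 5.50 and 5.57 after 1 h and 2.26, 2.27 and 2.00 after 2 h. The 3 groups were far apart from one another, with no overlap. It fell by 2.71 ± 0.18 (log2 difference ± standard error, adjusted p = 2.5e-05), a 6.52-fold loss, in the first hour and by 5.87 ± 0.18 (adjusted p = 5.2e-08), 58.4-fold, over both. If the block was complete, the first hour corresponds to a half-life of 22.2 min (95% interval 19.4 to 25.9) and both hours to 20.4 min (19.2 to 21.9). The level at 2 h was below an intensity of 32, near the bottom of the scale, so the size of the later loss is less sure than that of the first hour. Without any 1 of the untreated arrays the mean of Chac1 drops under the filter and it goes untested.

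Trib3, the pseudokinase that feeds back on Atf4, read 8.59, 8.93 and 9.18 on the untreated arrays, 7.85, 7.74 and 7.68 after 1 h and 5.78, 5.81 and 6.27 after 2 h. Each hour was below the one before without overlap. Trib3 fell by 1.14 ± 0.17 (adjusted p = 0.0015) in the first hour, by a further 1.80 ± 0.17 (adjusted p = 7.6e-05) in the next and by 2.95 ± 0.17 (adjusted p = 1.4e-06), 7.71-fold, over both. The half-life was 52.5 min (39.1 to 79.6) from the first hour and 40.7 min (36.0 to 46.9) from both. Its other probe set gave -0.46 ± 0.26 at 1 h (adjusted p = 0.19), which did not pass, and fell by 2.68 ± 0.26 at 2 h (adjusted p = 3.7e-05).

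Atf4 itself declined more slowly. Its levels were 11.88, 11.83 and 11.85 in untreated cells, 11.29, 11.36 and 11.49 at 1 h and 10.75, 10.77 and 10.89 at 2 h, again without overlap between times. The log2 difference was -0.47 ± 0.10 (adjusted p = 0.0061) at 1 h, short of a factor of 2, and at 2 h Atf4 fell by 1.05 ± 0.10 (adjusted p = 2.9e-05), 2.06-fold, with a half-life of 115 min (94.9 to 145). The other probe set fell by 1.07 ± 0.15 at 2 h. With each array centred on its median the loss at 2 h came to -0.99 and no longer reached 2-fold.

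Atf5 took another course. It read 10.45, 9.95 and 10.17 in untreated cells, 9.48, 9.17 and 9.33 at 1 h and 10.67, 10.13 and 10.24 at 2 h. The 1 h arrays lay below both other groups, which overlapped each other. The difference at 1 h was -0.87 ± 0.17 (adjusted p = 0.0051), not past 2-fold, and from 1 h to 2 h Atf5 rose by 1.02 ± 0.17 (adjusted p = 0.0017), the only member of 9 called higher in that comparison, where 2.28% of probe sets were higher and 7.32% lower (with quantile normalization 524 probe sets were higher and 790 lower, in place of 343 and 1103). The rise was no longer 2-fold without replicate 2 of the 1 h arrays (0.94) or replicate 1 of the 2 h arrays (0.86). Pck2 had the same shape at a smaller size, with differences of -0.60 ± 0.15 at 1 h and 0.56 ± 0.15 from 1 h to 2 h, neither past 2-fold. Its other probe set, at 0.23 ± 0.13 and -0.04 ± 0.13, did not show it.

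The remaining members changed by less than 2-fold in both hours. Vldlr differed by 0.53 ± 0.12 at 1 h (adjusted p = 0.0078) and 0.23 ± 0.12 at 2 h, and Cth by 0.44 ± 0.22 and 0.22 ± 0.22. Asns, which read 12.15, 12.10 and 12.13 in untreated cells and 12.17 to 12.38 at 2 h, differed by 0.10 ± 0.11 and 0.12 ± 0.11, with a 95% interval at 2 h of -0.12 to 0.36. Gpt2 differed by -0.05 ± 0.14 and 0.19 ± 0.14. Other probe sets of Gpt2 and Vldlr gave other values, also under 2-fold. The dimmest of Gpt2 was at 0.67 ± 0.13 (adjusted p = 0.0038) and 0.55 ± 0.13 (adjusted p = 0.0084), the third at 0.54 ± 0.19 (adjusted p = 0.046) at 1 h, and the second of Vldlr at -0.05 ± 0.19 and 0.17 ± 0.19. In RNA of a whole culture, fewer cells with a transcript and less of it per cell cannot be told apart.

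**Figure D2:**
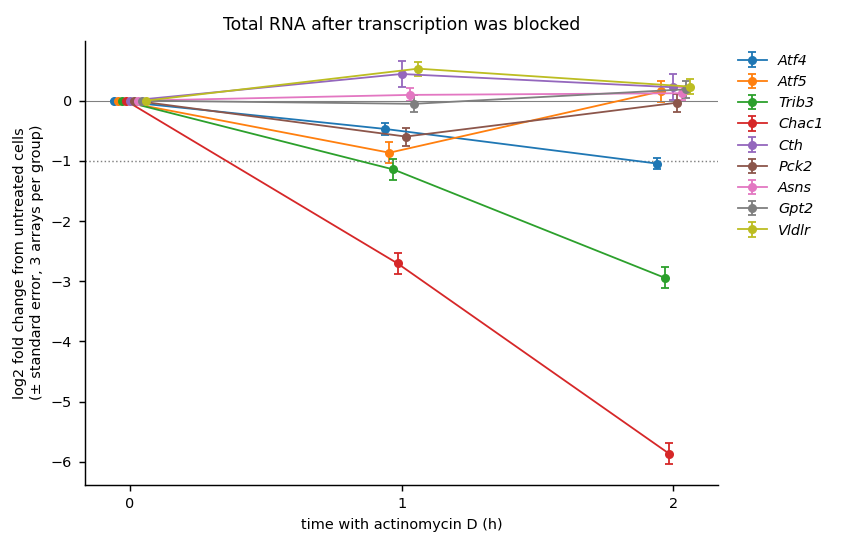
Log2 fold change from untreated cells against time with 5 µg/ml actinomycin D, for the 9 members tested, each point the difference of 3 against 3 arrays with its standard error and shifted slightly sideways for legibility. Chac1 reaches -5.87 and Trib3 -2.95 at 2 h, Atf4 reaches -1.05, and the other 6 lie between -0.03 and 0.23.

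The other genes of the pathway tested were 49 in 6 lists. After 1 h 8 were called lower and 0 higher (7 higher at an unadjusted p below 0.05 in limma), and after 2 h 10 and 0 (2 higher at that p). The shares over all probe sets were the 3.58% lower and 2.57% higher at 1 h and the 9.42% and 0.538% at 2 h given above, against which these counts are read. Among the partners of Atf4, 3 of 5 fell at 2 h, among them Cebpb (-2.97 ± 0.21) and Ddit3, also named Chop (-2.23 ± 0.18). Of 8 upstream genes 3 fell, led by Ppp1r15b (-2.39 ± 0.15) and Ppp1r15a (-1.88 ± 0.19), the phosphatase subunits that reverse eIF2 phosphorylation. Among 7 amino acid transporters only Slc38a2, which imports neutral amino acids, was called at 2 h, at -3.14 ± 0.12. Of 8 other known targets 3 fell, led by Sesn2 (-3.13 ± 0.30) and Ddit4 (-2.70 ± 0.15), both inhibitors of mTORC1 signalling. Of 13 tRNA synthetases 0 were called at 2 h by limma (1 at an unadjusted p below 0.05), and 0 of 8 enzymes of serine, proline and one-carbon metabolism (0 at that p). The list medians at 2 h were -1.79 for the partners, 0.02 for the synthetases and 0.11 for the serine group, beside 0.10 over all probe sets tested.

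Newly transcribed RNA was compared with total RNA to see which transcripts are made fast relative to their amount. Each array reports a transcript relative to the rest of its own RNA, so a positive difference is an excess over the typical transcript of the newly made pool. At 30 min the transcription factors Atf4 and Atf3, Trib3 and Chac1 were higher in newly transcribed RNA, and Atf5 and Pck2 were lower. That is 4 of 10 members higher and 2 lower, where 23.7% of the 16044 probe sets tested were higher and 25.6% lower. The comparison calls a large share of all probe sets, and the members' count is read against that share.

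Atf3 ranged from 5.33 to 6.26 in total RNA (median 5.93) and from 8.10 to 10.13 in newly transcribed RNA (median 9.10) at 30 min. The ranges were far apart, and Atf3 was higher by 3.29 ± 0.22 (adjusted p = 4.0e-11), 9.75-fold. Chac1 ranged from 8.26 to 8.93 (median 8.57) in total and from 9.89 to 11.69 (median 10.26) in newly transcribed RNA. It was higher by 2.03 ± 0.22 (adjusted p = 3.8e-08), again without overlap.

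Trib3 ranged from 8.24 to 9.33 (median 8.51) in total and from 9.70 to 10.87 (median 9.94) in newly transcribed RNA, a rise of 1.49 ± 0.18 (adjusted p = 3.0e-07). Atf4 ranged from 11.47 to 12.15 (median 11.98) and from 12.98 to 13.28 (median 13.06), a rise of 1.27 ± 0.11 (adjusted p = 2.1e-09). Neither gene's groups overlapped, and the other probe set of each gene gave a similar size, 1.78 ± 0.14 for Trib3 and 1.58 ± 0.17 for Atf4.

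Atf5 ran the other way, from 9.79 to 11.61 (median 10.55) in total and from 9.04 to 9.71 (median 9.51) in newly transcribed RNA, lower by a log2 difference of -1.19 ± 0.20 (adjusted p = 1.4e-05). Pck2 ranged from 10.68 to 11.45 (median 11.07) and from 9.62 to 10.36 (median 9.83), a difference of -1.13 ± 0.12 (adjusted p = 3.1e-08), and its other probe set gave -0.60 ± 0.15. Neither gene's groups overlapped. The other enzymes and Vldlr overlapped between the groups and were under 2-fold, Asns at -0.53 ± 0.13, Cth at -0.35 ± 0.11, Gpt2 at -0.25 ± 0.12 and Vldlr at 0.58 ± 0.14. The 4 probe sets of Gpt2 differed in size, and the dimmest was lower by 3.99-fold.

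The 3 sets of 30 min arrays differed in level. In newly transcribed RNA Chac1 averaged 11.44, 10.10 and 10.28 in the 3 sets, Trib3 10.73, 9.81 and 9.90, and Atf3 9.87, 8.67 and 9.03, so the set of replicates 1, 4 and 7 was the highest for all 3. The arrays of that set were also the least like their fellows, with median correlations of 0.930, 0.911 and 0.935 against 0.981 or more. Their Gapdh 3′ probe sets stood 0.29, 0.90 and 0.37 above the 5′ ones, against 0.08 or less on the other arrays. With the arrays of each set averaged and 3 values per group, the same 6 members were called, with adjusted p from 1.62e-04 for Atf3 to 0.015 for Atf5. Within single sets the new over total difference of Chac1 was 2.88, 1.76 and 1.46 and that of Trib3 2.34, 1.29 and 0.83. In the third set Trib3 and Atf4 (0.98) were under 2-fold, while Atf5, at -0.97, -0.49 and -2.11, and Pck2, at -0.99, -0.95 and -1.46, were past 2-fold in that set alone.

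After 60 min of labelling in the 2F experiment the same 6 members were called in the same directions, 4 higher and 2 lower, against 24% and 21.8% of 16205 probe sets overall. Chac1 read 7.24, 7.18 and 7.34 in total and 8.84, 9.18 and 9.54 in newly transcribed RNA, higher by 1.93 ± 0.16 (adjusted p = 4.4e-06). Atf3 read 6.02, 6.26 and 6.43 against 8.04, 8.59 and 8.66, higher by 2.19 ± 0.18 (adjusted p = 3.1e-06). The groups of both genes were well apart, as they were for all 10 members and for 85.9% of probe sets in this comparison.

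Trib3 was higher by 1.28 ± 0.17 and Atf4 by 1.22 ± 0.11 in newly transcribed RNA of 2F, while Pck2 was lower, at -1.68 ± 0.10, and so was Atf5, at -1.12 ± 0.12 (just under 2-fold, at -0.996, without replicate 2 of newly transcribed RNA). Cth (-0.80 ± 0.09), Gpt2 (-0.82 ± 0.11), Asns (-0.38 ± 0.08) and Vldlr (0.42 ± 0.09) stayed under 2-fold. The 3 other probe sets of Gpt2 were called lower here, at -1.51 ± 0.09, -1.81 ± 0.11 and -2.61 ± 0.12. Gpt2 is thus placed differently by its probe sets, and the bright one gives the smallest size.

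In the first 60 min experiment 4 members were again higher in newly transcribed RNA (17.7% of 15411 probe sets were) and 2 lower (21.8%). Atf3 was higher by 2.82 ± 0.32, Atf4 by 2.24 ± 0.39, Chac1 by 2.18 ± 0.27 and Trib3 by 2.06 ± 0.39, with adjusted p from 1.8e-04 to 0.0021. The other probe sets of Atf4 and Trib3 gave only 0.92 ± 0.37 (adjusted p = 0.065) and 0.33 ± 0.35 (adjusted p = 0.46), so for these genes the probe sets disagreed. The members called lower were Gpt2, at -2.61 ± 0.53 (adjusted p = 0.0031), and Asns, at -1.16 ± 0.34 (adjusted p = 0.018). Of their other probe sets, those of Gpt2 were called at -1.22 ± 0.43 and -1.19 ± 0.37, while that of Asns, at -0.59 ± 0.26 (adjusted p = 0.087), was not. The other probe set of Pck2 was called lower, at -1.29 ± 0.25 (adjusted p = 0.0023), where the brightest was not. The count changed with single arrays: 9 members were called without replicate 1 of newly transcribed RNA, 7 without replicate 1 of total RNA and 5 without replicate 3 of newly transcribed RNA. Asns was lost without that last array or without replicate 2 of total RNA.

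**Figure D3:**
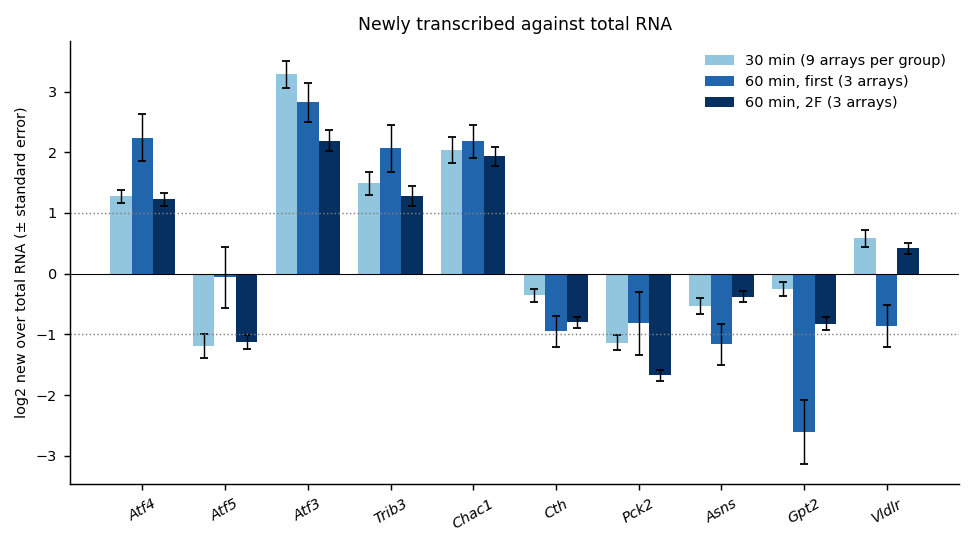
Log2 of newly transcribed over total RNA for the 10 members in the 30 min experiment (9 against 9 arrays), the first 60 min experiment and the 2F experiment (3 against 3 arrays each), bars with standard errors, the dotted lines at 2-fold either way. Atf4, Atf3, Trib3 and Chac1 lie above the upper line in all 3 experiments, and Cth, Pck2, Asns and Gpt2 below 0 in all 3.

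The pathway lists were counted in the same experiments. At 30 min 12 of 49 genes were higher in newly transcribed RNA and 9 lower, where 23.7% of all probe sets were higher and 25.6% lower, and the counts are read against those shares. Ppp1r15a (2.55 ± 0.21), Ppp1r15b (1.95 ± 0.12), Ddit3 (1.96 ± 0.15), Sesn2 (2.45 ± 0.14), Vegfa (1.72 ± 0.12) and the transporter Slc38a2 (1.23 ± 0.13) were among the higher ones. The lower ones held 4 of 13 tRNA synthetases, led by Cars (-1.86 ± 0.21) and Mars1 (-1.56 ± 0.08), and 3 of 8 enzymes of serine and one-carbon metabolism, led by Phgdh (-1.47 ± 0.14) and Psph (-1.07 ± 0.10). In that list Mthfd2, named here after its value was seen, was higher, at 1.07 ± 0.09. In 2F 12 were higher and 7 lower, where 24% and 21.8% of probe sets were, with Ppp1r15a at 2.16 ± 0.23, Sesn2 at 2.41 ± 0.17, Sars at -1.67 ± 0.09 and Psph at -1.47 ± 0.09. In the first 60 min experiment 14 were higher and 3 lower, where 17.7% and 21.8% of probe sets were. Its total and newly transcribed RNA arrays were the least alike within their groups. List medians at 30 min were 1.05 for the other known targets, 0.80 for the partners of Atf4, -0.57 for the synthetases and -0.94 for the serine group, beside -0.14 over all probe sets tested.

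Newly transcribed RNA was also compared between labelling times, against the shared 30 min arrays, and the dose of 4sU changed with time at 60 min. At 15 min 3 members were lower than at 30 min and 0 higher (7.59% of 16224 probe sets were lower and 9.5% higher, and 0 members were higher at an unadjusted p below 0.05). Atf3 read 6.53, 6.75 and 5.47 at 15 min, all below its range at 30 min, a difference of -2.94 ± 0.34 (adjusted p = 1.4e-05). Trib3 read 8.53, 8.59 and 7.95 and was lower at -1.79 ± 0.29 (adjusted p = 1.9e-04). Chac1 read 9.20, 9.06 and 8.78 and was lower at -1.59 ± 0.33 (adjusted p = 0.0012).

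Those 3 genes kept these calls without any 1 of the 15 min arrays and with the 30 min sets averaged. Atf4 read 12.85, 12.92 and 12.64 at 15 min and differed by -0.32 ± 0.14 from 30 min, and Atf5 differed by -0.20 ± 0.20. At 60 min of 2F Chac1 (-1.42 ± 0.33), Gpt2 (-1.10 ± 0.30) and Pck2 (-1.003 ± 0.24) were lower than at 30 min, where 7.16% of probe sets were, and 0 members were higher (3.69% of probe sets were, and 0 members at an unadjusted p below 0.05). Trib3, at -0.97 ± 0.29, was not called, but was with quantile normalization (-1.03), median centring (-1.02), the mean of its probe sets (-1.10) or without replicate 3 of 2F (-1.18). Only Chac1 was called there with the 30 min sets averaged or the replicate number as a block, a fit that kept 30 min replicates 1 to 3 only. Gpt2 was lost without replicate 3 of 2F, and Pck2 without replicate 1 or 2.

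Against the same 30 min arrays, the first 60 min experiment had 7 members lower (12.1% of probe sets) and 0 higher (5.23%, and 0 members at an unadjusted p below 0.05). Gpt2 was lower by a log2 difference of -3.47 ± 0.30, Trib3 of -2.79 ± 0.29, Cth of -2.63 ± 0.18, Vldlr of -2.41 ± 0.19, Chac1 of -2.11 ± 0.33, Pck2 of -2.10 ± 0.24 and Atf5 of -1.48 ± 0.20. Atf4, at 0.01 ± 0.14, and Atf3, at -0.51 ± 0.34, were not called. The 60 min experiments thus stood at different distances from the shared 30 min arrays.

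Total RNA of labelled cells was set against the untreated cells, which served as the shared control of 3 comparisons. Atf3 was higher in each of them. It read 3.96, 4.13 and 4.19 in untreated cells, 5.33 to 6.26 at 30 min, 6.16, 5.16 and 6.25 in the first 60 min experiment and 6.02, 6.26 and 6.43 in 2F. Every array of labelled cells' total RNA lay above each untreated one, and above the drug-treated arrays too. The rise was 1.81 ± 0.22 at 30 min (adjusted p = 1.2e-04), 1.76 ± 0.27 in the first 60 min experiment (adjusted p = 5.0e-04) and 2.14 ± 0.27 in 2F (adjusted p = 1.2e-04). The untreated level was below an intensity of 32, so the fold is uncertain. Atf3 passed the filter of log2 5 only through the labelled groups (means 5.90, 5.85 and 6.24, against 4.09 in untreated cells). Its entry into the test thus depended on its being higher there.

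At 30 min Atf3 was the only member called, 1 higher and 0 lower of 10, where 0.544% of 15455 probe sets were higher and 0.181% lower (1 member, Cth, was lower at an unadjusted p below 0.05, with -0.50 ± 0.12 and an adjusted p of 0.044, under 2-fold). Chac1 read 8.26 to 8.93 against 7.90 to 8.24, a difference of 0.53 ± 0.14 that did not pass (adjusted p = 0.076). The differences of Atf4 (0.00 ± 0.24), Pck2 (0.02 ± 0.26) and Vldlr (-0.02 ± 0.22) were near 0. Of the 49 pathway genes only Ppp1r15a was called at 30 min, higher by 1.25 ± 0.24.

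In 2F too, Atf3 was the only member called, against 1.36% higher and 0.498% lower overall (with quantile normalization 204 higher and 122 lower, in place of 210 and 77), and 0 members were called lower (4 at an unadjusted p below 0.05). Trib3 (-1.01 ± 0.28, adjusted p = 0.062), Gpt2 (-0.92 ± 0.26, adjusted p = 0.069), Chac1 (-0.79 ± 0.18, adjusted p = 0.019) and Cth (-0.66 ± 0.15, adjusted p = 0.020) were at lower values that did not pass both thresholds. For Trib3 this rested on the scaling: quantile normalization and median centring called it, at -1.05 and -1.06. Of the pathway genes 0 were called (17 at an unadjusted p below 0.05).

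The first 60 min experiment gave another picture of total RNA. There 6 members were called lower than in untreated cells, where 4.98% of probe sets were, and Atf3 alone was higher (3.49%). Trib3 read 5.88, 4.80 and 5.19, against 8.59 or more in untreated cells, and was lower by a log2 difference of -3.61 ± 0.28 (adjusted p = 2.9e-07). Cth read 7.02, 6.90 and 7.17, against 9.30 or more, and was lower at -2.54 ± 0.15 (adjusted p = 8.3e-09). Both genes were far below their untreated range on every array.

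Pck2 was more scattered, at 9.60, 7.73 and 8.50 against 10.91 to 11.11, a difference of -2.40 ± 0.32. Atf5 read 9.17, 6.88 and 7.91 (-2.21 ± 0.47), Chac1 6.20, 6.62 and 6.14 (-1.72 ± 0.18) and Gpt2 7.55, 8.69 and 7.80 (lower by 2.83-fold). Atf4 read 11.55, 9.95 and 11.20 and Vldlr 6.27, 7.03 and 7.05, with differences of -0.95 ± 0.30 and -0.98 ± 0.27 just short of 2-fold, and Asns (-0.37 ± 0.22) overlapped the untreated arrays.

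The probe sets of a gene differed in size here. The other probe set of Trib3 was lower by -1.51 ± 0.32 (adjusted p = 0.0047), less than the brightest, and that of Pck2 by -1.47 ± 0.19. Those of Gpt2 were lower by -3.13 ± 0.28, -2.67 ± 0.24 and -2.97 ± 0.37, more than the brightest, and that of Vldlr by -2.13 ± 0.17, past 2-fold where the brightest was not. The other probe set of Atf4 differed by -0.04 ± 0.36 and that of Asns by -0.86 ± 0.14, and neither was called.

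Replicate 2 of this group, the array with the wide beta-actin gap, was the lowest for Atf4, Atf5, Trib3, Cth, Pck2 and Atf3 and the highest for Asns, Gpt2 and Chac1. Without it 8 members were called, Vldlr and the 7 above. Without replicate 1 and without replicate 3 of total RNA 8 and 9 were called, with Atf4 among them. Of 49 pathway genes 15 were lower, against 4.98% of all probe sets, and 0 higher (1 higher at an unadjusted p below 0.05), led in their lists by Psph (-1.91 ± 0.23), Eif2ak3 (-1.75 ± 0.17), Herpud1 (-1.59 ± 0.16) and Cebpb (-1.63 ± 0.52). The summed level of the fibroblast markers ran from 15.96 to 16.20 on these arrays and from 16.14 to 16.24 in untreated cells, and those of the 3 other cell types stayed at 4.74 or less. The part of array quality in the low values was not tested.

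The experiments of 60 min were compared directly. In total RNA 3 members were called higher in 2F than in the first experiment and 0 lower (0 at an unadjusted p below 0.05), where 1.15% of 15879 probe sets were higher and 0.579% lower. With quantile normalization the overall split turned from 183 higher and 92 lower to 165 and 197, and median centring to 176 and 174. The scaling moved the median of all probe sets between 60 min groups by over 0.1 in 3 comparisons: from 0.05 to -0.07 here, from 0.15 to 0.03 in newly transcribed RNA and from 0.11 to 0.01 between pre-existing and total RNA. Trib3 read 7.96, 7.89 and 7.83 in 2F against 5.88 or less, higher by 2.60 ± 0.36 (adjusted p = 0.0098). Cth was higher by 1.87 ± 0.21 (adjusted p = 0.0048) and Atf5 by 2.00 ± 0.46 (adjusted p = 0.049). Pck2 (1.96 ± 0.46, adjusted p = 0.053) and Chac1 (0.93 ± 0.25, adjusted p = 0.073) did not pass, and Asns differed by -0.09 ± 0.29.

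For 7 of 10 members the arrays of the total RNA groups did not overlap, as for 42.7% of all probe sets. The number of calls, though less the size of the differences, changed with single arrays: 0 members were called without replicate 1 or 2 of 2F, 1 without its replicate 3, 2 without replicate 2 or 3 of the first experiment and 4 without its replicate 1. Over these fits the difference of Cth stayed at 1.81 to 1.94 and that of Trib3 at 2.36 to 2.90, with adjusted p up to 0.072 and 0.084. The difference of Atf5 ran from 1.45 to 2.59, with adjusted p up to 0.20. The probe sets also disagreed. The other probe set of Trib3 differed by 0.40 ± 0.31 and that of Atf4 by -0.56 ± 0.34, opposite in sign to the 0.70 ± 0.34 of the brighter one, and neither passed. For Gpt2 the brightest probe set differed by 0.58 ± 0.47, while 2 others were higher by 2.71 ± 0.38 and 2.25 ± 0.32, and for Vldlr the 2 tested gave 0.51 ± 0.30 and 1.65 ± 0.21. Pck2 was called by its other probe set, at 1.30 ± 0.21.

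In newly transcribed RNA 4 members were higher in 2F and 0 lower (0 at an unadjusted p below 0.05), where 2.08% were higher and 0.384% lower. With quantile normalization the overall split went from 331 higher and 61 lower to 190 and 109, and with median centring to 234 and 82. Gpt2 read 7.95, 7.79 and 7.59 in 2F and 4.07, 6.24 and 5.91 in the first experiment, higher by 2.37 ± 0.47 (adjusted p = 0.023). Cth was higher by 2.02 ± 0.21 (adjusted p = 9.7e-04), Trib3 by 1.82 ± 0.36 (adjusted p = 0.021) and Vldlr by 1.80 ± 0.30 (adjusted p = 0.0095). Only 1 of these was called without replicate 1 or 2 of 2F, 2 without its replicate 3, and 3 without replicate 2 of the first experiment. Without replicate 1 of the first experiment, the array with the wide Gapdh gap, 5 were called. Over these fits Trib3 stayed at 2.18 or less and above 2-fold, Gpt2 ran from 1.70 to 2.78, Vldlr from 1.48 to 2.08 and Cth from 1.84 to 2.22, so the calls were lost through the adjusted p.

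Since both kinds of RNA stood lower in the first experiment for several members, the new over total difference was compared as an interaction. Of 10 members 0 were called by limma (2 at an unadjusted p below 0.05), and 0.0252% of all probe sets were (4 probe sets). The largest values were those of Gpt2, 1.78 ± 0.67 (adjusted p = 0.31), and Vldlr, 1.28 ± 0.42 (adjusted p = 0.26). For Chac1 the difference was -0.25 ± 0.35, with a 95% interval of -1.01 to 0.52, and for Cth 0.15 ± 0.30, with an interval of -0.50 to 0.80. The intervals of Atf4 (-2.08 to 0.05) and Pck2 (-2.28 to 0.57) were too wide to tell a 2-fold difference from none.

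**Figure D4:**
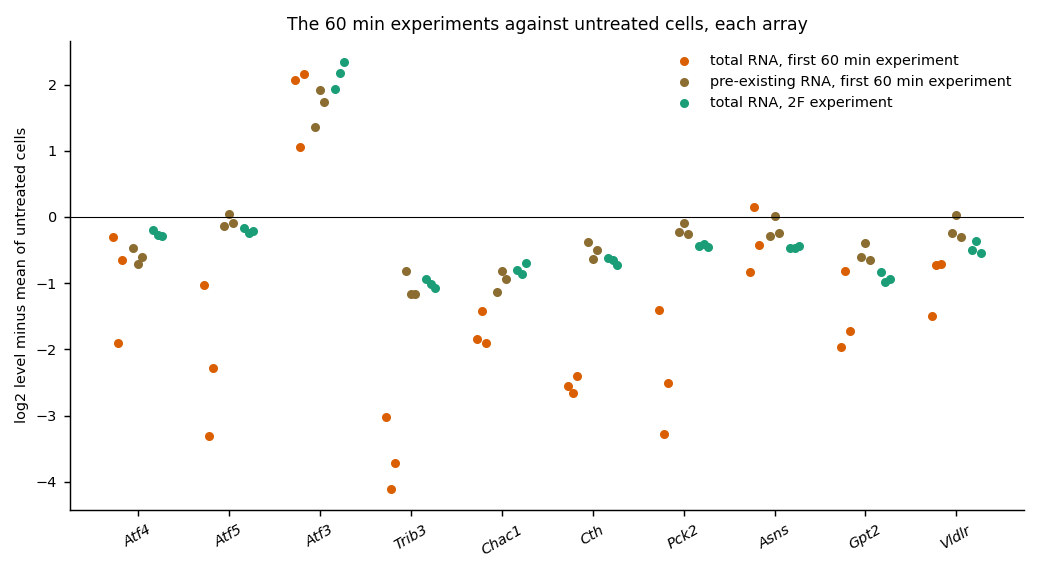
Log2 level minus the mean of untreated cells on each array of total RNA (orange) and pre-existing RNA (brown) of the first 60 min experiment and of total RNA of 2F (green). For Trib3, Cth and Pck2 the orange arrays lie below the others while brown and green lie close to each other, and Atf3 is above 0 on all arrays.

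Pre-existing RNA should be a part of the total RNA of its own experiment, whose arrays are also the control of the new over total comparison. On the arrays, 4 members were nevertheless higher in pre-existing than in total RNA of the first experiment and 0 lower (0 at an unadjusted p below 0.05), against 1.87% higher and 6.96% lower overall. With the replicate number as a block the overall counts went from 288 higher and 1072 lower to 600 and 1208, and the same 4 members were called. Trib3 read 8.09, 7.74 and 7.74 in pre-existing RNA and 5.88 or less in total RNA, higher by 2.57 ± 0.39 (adjusted p = 0.0018). Pck2 (2.20 ± 0.51), Atf5 (2.14 ± 0.50) and Cth (2.03 ± 0.26) were also higher. The probe sets again disagreed for Trib3, whose other one differed by 0.56 ± 0.35 (adjusted p = 0.31), and for Atf4, at 0.36 ± 0.39 and -0.74 ± 0.37, of which neither passed. Pck2 was also called by its other probe set (1.58 ± 0.25). So were 2 of Gpt2 (2.85 ± 0.43 and 2.21 ± 0.37) and 1 of Vldlr (1.82 ± 0.24), whose brightest were not. Atf5 and Pck2 were lost, at adjusted p from 0.065 to 0.090, without any 1 of the 6 arrays except replicate 1 of total RNA.

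Set against total RNA of 2F, in a comparison added after these values were seen, 0 members were called (6 at an unadjusted p below 0.05; overall 3.7% were lower and 0.0586% higher). The pre-existing mean of Trib3 differed from 2F total by -0.03 ± 0.11, that of Cth by 0.16 ± 0.09 and that of Pck2 by 0.24 ± 0.07. Atf4 (-0.34 ± 0.08, adjusted p = 0.028) and Gpt2 (0.37 ± 0.10, adjusted p = 0.031) passed the p threshold at under 2-fold. For 8 of the 10 members the pre-existing mean lay nearer to total RNA of 2F than to total RNA of its own experiment. The share of all probe sets that did so was not counted, so the count cannot be read as particular to the members. For Atf4 the differences were of nearly equal size, -0.34 from 2F and 0.36 from its own experiment.

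The design allows half-lives from the labelled fractions, scaled so that the new and the old fraction of a transcript sum to 1. In the first experiment this gave little for these genes, because the line between p/tc and nt/tc was loose (r = -0.22 across 8600 probe sets) and the pre-existing fraction came out above 1 for 7 of 10 members, up to 4.76 for Trib3. Its new fractions were 0.42 for Atf3, 0.29 for Chac1, 0.27 for Atf4 and Trib3 and 0.0515 or less for the 6 others. With total and newly transcribed RNA of 2F in their place, a combination chosen after seeing the data, r was -0.66 across 8768 probe sets and the pre-existing fraction was above 1 for 3 members, Asns, Gpt2 and Vldlr.

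On that scale the half-life from newly transcribed RNA was 47.0 min for Atf3, 61.0 min for Chac1, 109 min for Trib3, 117 min for Atf4 and 224 min for Vldlr. Those of the enzymes were longer, 403 min for Asns, 549 min for Cth, 554 min for Gpt2 and 1022 min for Pck2, with Atf5 at 686 min. The pre-existing fraction gave 83.8 min for Atf3, 142 min for Chac1, 215 min for Trib3 and 102 min for Atf4. For Atf3 the pre-existing RNA itself stood 1.67 above untreated cells, so its half-life from that fraction is not secure. The reason for that excess was not tested. Beside the 20.4 min and 40.7 min after actinomycin D, the label gave longer values for Chac1 and Trib3, and for Atf4 it gave 102 and 117 min beside 115 min. These estimates take total RNA as constant during labelling, while Atf3 in total RNA rose by 2.14 and Chac1 and Trib3 lay at -0.79 and -1.01 against untreated cells, and they carry no replicate error. The planned estimates, from newly transcribed RNA of the first experiment, differed for several genes. They were 75.3 min for Atf3, 122 min for Chac1, 131 min for Trib3 and 130 min for Atf4. For Vldlr, Asns and Cth they were 1150, 1448 and 1225 min, and for Gpt2, Pck2 and Atf5 3527, 1163 and 787 min.

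Genes whose group means ran most like those of 3 members over the 11 groups were searched among 8238 probe sets, as a description only. For Atf4 they were Brd2 (Pearson r = 0.991), Klf3 (0.978) and Zcchc14 (0.974), for Chac1 Zfp503 (0.970), Plk2 (0.963) and Cited2 (0.961), and for Trib3 Gigyf2 (0.932), Zc2hc1a (0.905) and Zfp410 (0.899). The 11 means share arrays of the same cells and scaling. None of the 9 was another member or a gene of the pathway lists.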

How the data were processed

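RNA of mouse NIH-3T3 cells was measured on 45 Affymetrix arrays in 11 groups, assigned from the sample labels. The deposited values are linear intensities per probe set, which the authors made with GCRMA (background correction, normalization and summary of probes), per the submitters' processing notes; its version is not given in the sources used here. Their log2 was taken with no further scaling. Of 31451 probe sets, 61 controls were left out, 25031 of the rest had 1 symbol, 690 several and 5669 none, and 24934 matched a RefSeq gene. GCRMA scales arrays to each other, so changes in the amount of RNA per cell are not seen, and the number of arrays limits the precision.

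Each comparison (17 in all) was fitted over its own groups, or over groups sharing a control, with limma 3.58.1 (lmFit, eBayes) in R 4.3.3 on probe sets with a mean log2 of at least 5 (an intensity of 32), with two-sided tests. Calls needed a fold of 2 or more together with a p below 0.05 after Benjamini-Hochberg adjustment across every probe set in the fit. Simulated data with independent noise were used to test the comparisons of 1 h of actinomycin D and of new against total RNA at 30 min. The other fits were not tested in that way. Half-lives after actinomycin D are the time divided by the log2 loss, with 95% intervals from limma. The alternatives were quantile normalization, median centring, no filter, the mean of all probe sets of a gene, the replicate number as a block, each replicate left out, and subsets of the 30 min arrays.

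The members and the pathway lists were chosen with earlier results of these data known. The genes named were the 10 members and, from each pathway list, up to 2 called genes with the largest change in the comparison described, and the 3 probe sets of other genes, at a mean level of at least 7, whose group means correlated best with those of Atf4, Chac1 and Trib3. No label states what a replicate number marks. Same-numbered arrays deviated together in some comparisons, with every pair above 0.1 (lowest 0.146, highest 0.641). They were each actinomycin D time against untreated cells, and new, pre-existing and untreated against total RNA of the first 60 min experiment. The new RNA of that experiment against that at 30 min was another. By this rule alone the numbers count as pairing there, and no label says that arrays with the same number shared a culture. The values given come from fits without the replicate block, which was an alternative. The block fits used only arrays whose replicate number occurred in all groups of the fit.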

Additional observations from a re-analysis of the deposited data

How the results depend on the processing

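Over all comparisons and alternatives, 1796 results for single members stayed on the same side of the thresholds, 60 lost a call and 28 gained one. The sign turned in 45, of which 0 were of differences called as reported. The mean of all probe sets of a gene gave 1 member called after 1 h of actinomycin D in place of 2, 5 in place of 3 between the total RNA groups of 60 min, and 2 in place of 1 in total RNA of 2F against untreated cells. The last count was also 2 with quantile normalization and with median centring. Without the filter 2 members in place of 4 were called in pre-existing against total RNA. In newly transcribed RNA of 2F against 30 min, 3 calls became 1 with the replicate number as a block, with 30 min replicates 1 to 3 only, and with the 30 min sets averaged, an alternative chosen after seeing the data. For the members the replicate block changed no other call or count. Over all probe sets it moved counts by over 1.5 times in pre-existing against total RNA, given beside that result, and where the numbers do not count as pairing: total RNA at 30 min against untreated cells (28 lower and 84 higher became 7 and 40), newly transcribed RNA of 2F against 30 min (1161 and 599 became 679 and 345), and the lower calls between the total RNA groups of 60 min (92 became 59). The 4 probe sets called in the interaction were lost.

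Leaving out 1 array in turn gave 1 to 2 members called at 1 h of actinomycin D, 2 to 3 at 2 h and 2 to 3 between the times, the lower counts at 1 h and 2 h being those without an untreated array, where Chac1 was not tested. New against total RNA gave 5 to 9 in the first 60 min experiment and 5 to 6 in 2F, pre-existing against total RNA 2 to 4, 2F against the first experiment 0 to 4 in total and 1 to 5 in newly transcribed RNA, and the first experiment against untreated cells 7 to 9. Newly transcribed RNA against 30 min gave 7 to 8 in the first experiment and 2 to 3 in 2F. The counts stayed at 3 for 15 min against 30 min, at 0 for the interaction and for pre-existing RNA against total RNA of 2F, and at 1 for the other totals against untreated cells. Of 37 alternative half-lives 30 stayed inside the 95% interval (actinomycin D) or within 0.25 log2 units (label, which has no replicate error), and 7 did not, each of them with the 2F arrays. Those 7 were the label half-lives of Atf3, Trib3, Chac1, Cth, Asns, Gpt2 and Vldlr. For these genes the values given first above, with the 2F arrays, thus moved from the planned estimates. Signal over background limits Atf3 in untreated and drug-treated cells and Chac1 at 2 h, which lay below an intensity of 32. Single arrays of other groups lay below it too. Chac1 read 30.85 on replicate 1 at 1 h of actinomycin D. In the first 60 min experiment Trib3 read 27.85 on replicate 2 of total RNA, and Gpt2 16.80 on replicate 1 of newly transcribed RNA. Without that last array the new over total difference of Gpt2 was smaller, at -1.94.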
